A study of Mus musculus with 4 samples.

Results

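The Myc, Max and Mxd network is a set of transcription factors with a basic helix-loop-helix leucine zipper that bind E-box sequences in DNA as dimers. It was followed here through all probe sets whose only gene symbol was Myc, Mycn, Max, Mxd1, Mxd3, Mxd4, Mxi1, Mga, Mnt or Mlx. Each of the 10 genes had 1 such probe set, so the network is 10 genes of the 19938 measured and 10 probe sets of the 28939 tested. Arrays of bone marrow cells gated as Lin- c-Kit+ Sca-1+ (KLS), the gate that holds hematopoietic stem cells and multipotent progenitors, were compared between Klf7-/- (labelled KLF7 KO) and Klf7+/+ (labelled wild type). Klf7 encodes a Kruppel-like zinc finger transcription factor. All cells were of C57Bl/6 strain and came from chimeras made with fetal liver cells, in whose marrow both genotypes were present. There were 2 arrays per genotype. The sources used here do not give the age of the mice, the number of mice or donors behind an array, any pooling, the structure of the Klf7 allele, or whether both genotypes were sorted from the same animals. The p-values therefore reflect the spread between these arrays alone, and that spread may be technical.

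Within the network, Myc and its relative Mycn activate growth genes once paired with Max, the shared partner without which they cannot bind DNA. The Mxd proteins, Mxi1, Mnt and Mga also pair with Max and repress many of the same genes, the Mxd proteins and Mnt through Sin3 corepressors. Mlx is a second hub, which pairs with Mxd1, Mxd4, Mnt and the glucose-responsive factors Mlxip and Mlxipl. In the bone marrow, Myc is known for its part in the balance between stem cell self-renewal and differentiation, and Mycn for overlapping with it in stem cells.

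Across arrays, the median intensity lay between 51.01 and 52.26, and log2 intensities of all probe sets correlated between arrays at Pearson's r of 0.961 to 0.969, where probe sets are not independent replicates. Klf7 itself was not lower on the arrays labelled knockout: its probe set read 6.59 and 6.18 (log2 intensity) there against 5.95 and 6.10 on the wild-type arrays. The deleted part of Klf7 is not described in the sources used here, this probe set may lie outside it, and every direction below rests on the labels alone. Xist, the RNA of the inactive X chromosome, read 11.76 and 11.58 in knockout against 5.24 and 4.80 in wild type. The Y-linked Kdm5d, Uty and Eif2s3y were lower in knockout without overlap, at -1.63, -2.88 and -4.58 (log2). Zfy1 and Usp9y, also Y-linked, overlapped at 0.09 and -0.05. These 4 transcripts without overlap divide the arrays as genotype does, so sex-linked and genotype differences cannot be told apart. Of the sort antigens, Kit was measured at 10.12 and 9.92 in knockout against 9.55 and 9.71 in wild type, and the Sca-1 gene Ly6a was not analysed here. The summed intensity of 10 of 12 stem and early progenitor markers was 4970 and 4971 in knockout against 4025 and 3605 in wild type, higher on both knockout arrays. Such a sum is weighted to the brightest genes. By gene, 8 were higher and 2 lower in knockout, the lower ones being Gata2 at -0.20 and Mecom at -0.71, whose other probe set gave 0.54. Summed over all 8 granulocyte markers it was 2743 and 749.2 in knockout against 1115 and 1807 in wild type, so the highest and the lowest array were both knockout. The sums of the T cell, B cell, erythroid and monocyte marker lists lay between 180.7 and 537.0 on every array, and no marker read by these 4 lists exceeded 7.77 on the log2 scale. Whether these markers play a part in the network's values was not tested.

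Promoter sequences are shown for members picked by their array values, and for those that carry the network's own binding sequence. They come from RefSeq (GRCm38.p6), in which 9 of the 10 members were matched, and they do not show where the array's probes lie. The member without a match was Myc, so the sequence counts leave it out. The 250 bases upstream of the start site follow for Mga, Mxd1 and Mxi1, the members whose knockout and wild-type arrays did not overlap. Capitals mark the GC box GGGCGG, read on both strands, which Sp and Kruppel-like factors are known to bind.
Mga, chr2:119896978-119897227, plus strand: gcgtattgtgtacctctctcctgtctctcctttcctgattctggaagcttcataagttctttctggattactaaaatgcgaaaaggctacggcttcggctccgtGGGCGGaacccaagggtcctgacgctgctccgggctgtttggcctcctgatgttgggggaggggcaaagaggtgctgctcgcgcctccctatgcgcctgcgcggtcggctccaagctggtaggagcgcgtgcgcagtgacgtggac
Mxd1, chr6:86669160-86669409, minus strand: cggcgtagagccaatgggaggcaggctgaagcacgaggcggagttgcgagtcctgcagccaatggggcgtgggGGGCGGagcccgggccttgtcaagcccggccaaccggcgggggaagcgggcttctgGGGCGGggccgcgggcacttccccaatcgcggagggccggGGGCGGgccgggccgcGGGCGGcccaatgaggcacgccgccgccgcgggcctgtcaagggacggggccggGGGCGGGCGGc
Mxi1, the first of 3 listed starts, chr19:53310256-53310505, plus strand: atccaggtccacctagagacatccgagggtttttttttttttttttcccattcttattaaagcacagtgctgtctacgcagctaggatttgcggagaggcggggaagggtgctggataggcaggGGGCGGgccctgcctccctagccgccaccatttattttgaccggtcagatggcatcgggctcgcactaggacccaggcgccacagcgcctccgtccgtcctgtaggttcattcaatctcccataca

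The stretch of Mxd1 held 6 GC boxes, the last pair overlapping, and that of Mga held 1. For Mxi1 the number depended on the start, with 1 box in the stretch shown and 4 in the 300-base window of each of the other 2 starts. In windows of 300 bases, which add the 50 bases after the start, a GC box was found in 7 of the 9 matched members, against 38.2% of all genes in the table. Members whose arrays overlapped held 8 in Mxd3, 4 in Mnt, 2 in Mycn, 1 in Mxd4 and 0 in Max and Mlx. The Kruppel-like factor sequence CACCC, also on both strands and open to overlap with the GC box, was found in 5 of 9 members and 59.8% of all genes. The E-box CACGTG, which Myc-Max and Mxd-Max dimers bind and which reads the same on both strands, was found in 4 of 9 members and 8.09% of all genes. These 4 windows of 30 bases are shown because they hold the network's own site within network genes, with the E-box in capitals.
Max, chr12:76962234-76962263, minus strand: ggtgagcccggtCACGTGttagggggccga
Mnt, chr11:74830789-74830818, plus strand: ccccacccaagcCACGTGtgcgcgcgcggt
Mlx, chr11:101087238-101087267, plus strand: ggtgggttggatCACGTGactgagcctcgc
Mxd4, chr5:34187912-34187941, minus strand: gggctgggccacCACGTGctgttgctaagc

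The first base of the E-box lay 3 bases before the start in Max, 40 in Mlx, 123 in Mnt and 219 in Mxd4. None of the starts listed for Mga, Mxd1, Mxi1, Mxd3 and Mycn had these letters in its window. A match is a description of letters and not of a bound site.

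No member of the network passed the threshold between knockout and wild type (limma, two-sided, Benjamini-Hochberg adjusted p under 0.05 over all probe sets tested), where 0.00346% of all probe sets, Xist alone, did. At an unadjusted p under 0.05 there was 1 member of 10, Mga, against 4.81% of all genes, of which 2.57% were higher and 2.25% lower in knockout. Mga was the member with the largest difference, about 2-fold higher in knockout. Arrays of the groups did not overlap for 3 of 10 members, against 33.2% of all genes. The 2 that were higher in knockout, Mga and Mxi1, stand against 14.5% of all genes, and the 1 that was lower, Mxd1, against 18.6%. The share without overlap is thus near the background. Of the 10, 5 were higher and 5 lower, where 45% of all genes were higher, with a median difference of -0.04 (log2) against -0.03 over all genes. In KLS cells sorted in bulk, fewer cells of a type and less RNA per cell cannot be told apart.

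**Figure D1:**
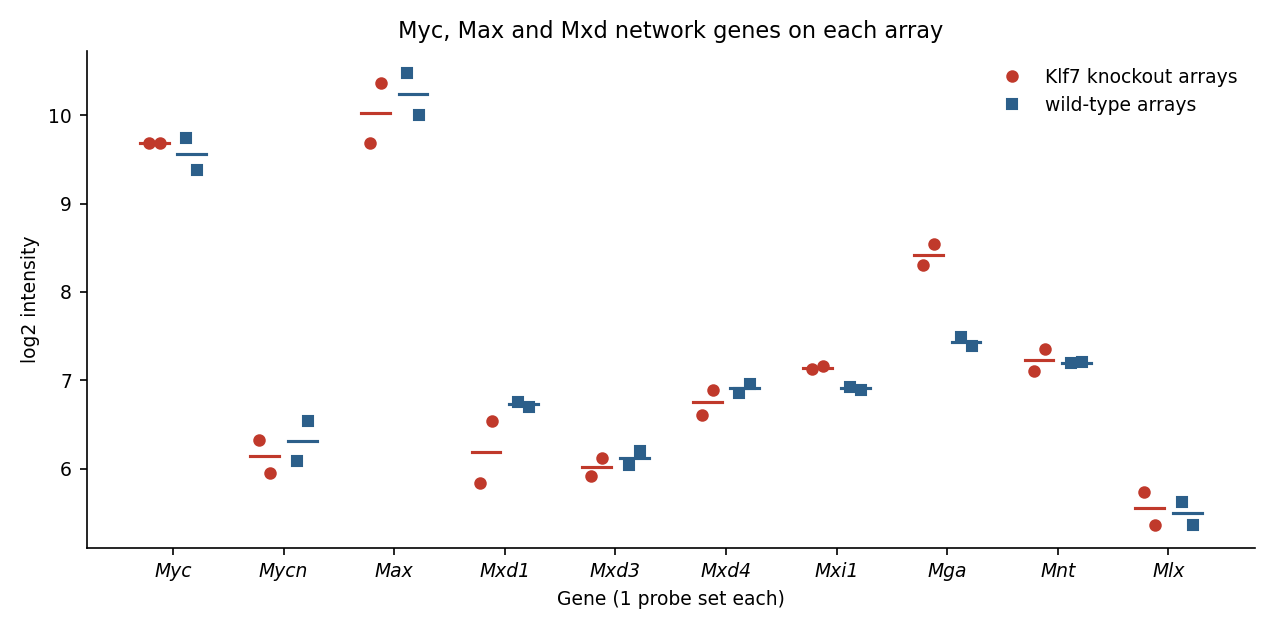
Log2 intensity (vertical axis) of the 10 network genes (horizontal axis) on each array, with circles for the 2 Klf7 knockout arrays, squares for the 2 wild-type arrays and lines for group means. Mga at 8.31 and 8.54 in knockout stands clear of 7.49 and 7.39 in wild type, whereas most other genes overlap; heights of different genes depend on their probes and are not comparable.

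Mga, the largest protein of the network, carries a T-box DNA-binding domain beside its helix-loop-helix and is the scaffold of a variant Polycomb repressive complex. It read 8.31 and 8.54 (log2 intensity) on the knockout arrays and 7.49 and 7.39 on the wild-type arrays, or 317.1 and 371.8 against 179.2 and 167.9 on the deposited linear scale. Both knockout arrays were above both wild-type arrays, and the closest pair of arrays of different genotype was 0.82 apart. The arrays of 1 group were 0.23 apart in knockout and 0.09 in wild type. The difference was 0.99 ± 0.17 log2 units (SE, n = 2 per group; 95% confidence interval 0.53 to 1.44), a 1.98-fold higher level in knockout. Its limma p was 0.00285 unadjusted and 0.945 adjusted. A smaller absolute difference was found for 98.4% of genes, and 3.04% of genes were at least 1.5-fold higher in knockout without overlap, as Mga was. With any 1 array left out the difference of Mga stayed between 0.87 and 1.10.

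The repressor genes Mxi1 and Mxd1 were the others without overlap, in opposite directions. Mxi1, also known as Mad2, encodes an Mxd-type partner of Max that recruits Sin3. It read 7.13 and 7.16 in knockout against 6.93 and 6.89 in wild type. Both groups were tight, 0.04 apart within each, and 1.93% of genes had a smaller within-group SD than its 0.03. The difference was 0.23 ± 0.15 (SE, n = 2 per group; interval -0.17 to 0.63; limma adjusted p = 0.953), a 1.18-fold higher level in knockout. The SE of Mxi1 exceeds its array spread because limma draws each probe set's variance towards that of all probe sets.

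Mxd1, or Mad1, is the founding antagonist of Myc and is known to rise as blood cells leave the cell cycle to differentiate. It read 5.84 and 6.55 in knockout against 6.76 and 6.70 in wild type. Knockout replicate 1 was far below the rest, and knockout replicate 2 was 0.15 below the nearer wild-type array. The difference was -0.54 ± 0.28 (SE, n = 2 per group; interval -1.27 to 0.19; limma adjusted p = 0.949), and 91.9% of genes had a smaller absolute difference. Without knockout replicate 1 it was -0.18, and without knockout replicate 2 it was -0.89, so 1 array set its size.

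The other antagonists overlapped between genotypes. Mxd3, an Mxd protein known from S phase cells, read 5.92 and 6.12 in knockout against 6.05 and 6.20 in wild type, a difference of -0.10 ± 0.17 (SE, n = 2 per group; interval -0.55 to 0.35). Mxd4 read 6.61 and 6.89 against 6.86 and 6.96, a difference of -0.16 ± 0.18 (interval -0.63 to 0.31). For both genes the lowest array was knockout replicate 1, without which the differences were -0.00197 and -0.02. Mnt, the broadly expressed Max partner that opposes Myc in most cells, read 7.10 and 7.36 in knockout against 7.20 and 7.21 in wild type, and the wild-type arrays lay between the knockout arrays. The difference of Mnt was 0.03 ± 0.17 (interval -0.42 to 0.48), and its sign turned to -0.01 with quantile normalization. The intervals of Mxd3, Mxd4 and Mnt are wide beside their differences and do not show that the genotypes were alike.

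The activators were not separated by genotype either. Myc read 9.683 and 9.686 in knockout against 9.75 and 9.37 in wild type. The knockout arrays were nearly equal and lay between the wild-type arrays, so the whole difference of 0.12 ± 0.19 (SE, n = 2 per group; interval -0.39 to 0.63; limma adjusted p = 0.980) hangs on wild-type replicate 2, and without that array it was -0.06. By distance over the 4 array values after centring each gene, the genes most like Myc among those above the median level were Dspp, Saraf and Ngdn, at root mean square distances of 0.0075, 0.012 and 0.014 (log2). With 4 arrays such likeness is common, since 548 of 9968 genes lay within 0.1 of Myc.

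Mycn read 6.33 and 5.96 in knockout against 6.09 and 6.54 in wild type, and the groups interleaved. The difference was -0.17 ± 0.25 (SE, n = 2 per group; interval -0.82 to 0.47; limma adjusted p = 0.976). Its largest excursion was wild-type replicate 2, the array on which Myc was lowest. Without that array the difference of Mycn was 0.06. Another paralog, Mycl, which was not a member by the rule, read 5.66 and 5.85 against 5.76 and 5.71, with a difference of 0.02 ± 0.16 (interval -0.41 to 0.45).

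The hub genes Max and Mlx overlapped between genotypes as well. Max read 9.68 and 10.36 in knockout against 10.47 and 10.01 in wild type. Its arrays differed within a group by 0.68 in knockout and 0.47 in wild type, and its within-group SD of 0.41 was above that of 85.5% of genes, the widest of the 10. The difference was -0.22 ± 0.31 (SE, n = 2 per group; interval -1.03 to 0.60; limma adjusted p = 0.977), and it was 0.12 without knockout replicate 1 and 0.02 without wild-type replicate 1.

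Mlx read 5.74 and 5.36 in knockout against 5.63 and 5.36 in wild type, so the lower array of each group was at the same level. The difference was 0.06 ± 0.21 (interval -0.51 to 0.62), and it turned to -0.13 without knockout replicate 1. Mlx was also the only member below the median level of genes. Of its partners, Mlxip read 6.79 and 7.24 against 6.27 and 6.85, overlapping, with a difference of 0.45 ± 0.28 (SE, n = 2 per group). Mlxip stood at 0.16 without wild-type replicate 1. Mlxipl, known as ChREBP, read 5.54 and 5.49 against 5.73 and 5.76 and did not overlap, with a difference of -0.22 ± 0.15 (interval -0.62 to 0.18; limma adjusted p = 0.953).

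**Figure D2:**
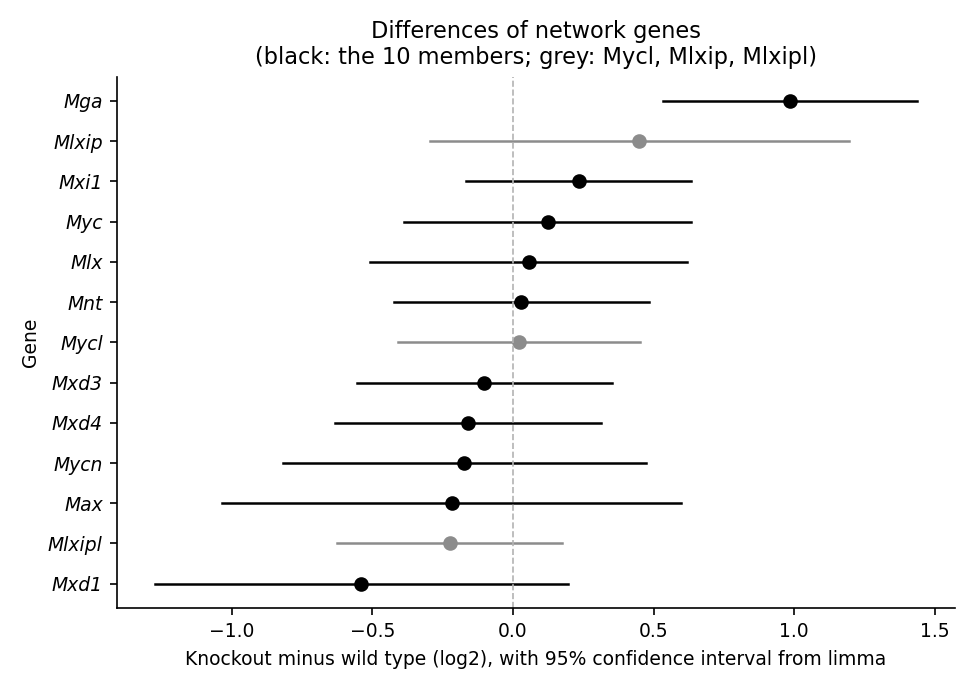
Knockout minus wild-type difference (log2, horizontal axis; points) with limma's 95% confidence interval (lines) for the 10 members in black and Mycl, Mlxip and Mlxipl in grey (vertical axis), 2 arrays per group. Only the interval of Mga, 0.53 to 1.44, lies clear of 0, and its adjusted p was 0.945.

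Knockout replicate 1 was the lowest of the 4 arrays for 5 of 10 members, namely Max, Mxd1, Mxd3, Mxd4 and Mnt, against 30.4% of all genes. It was the array with the highest granulocyte marker sum, and whether that bears on these values was not tested. Wild-type replicate 1 was lowest for 0 members and highest for 3, where 23.5% of genes had their lowest value on it. With 1 array left out, the sign of the difference turned at least once for Myc, Mycn, Max, Mnt and Mlx. It did not turn for Mga, Mxi1, Mxd1, Mxd3 and Mxd4, although that of Mxd3 shrank to -0.00197.

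**Figure D3:**
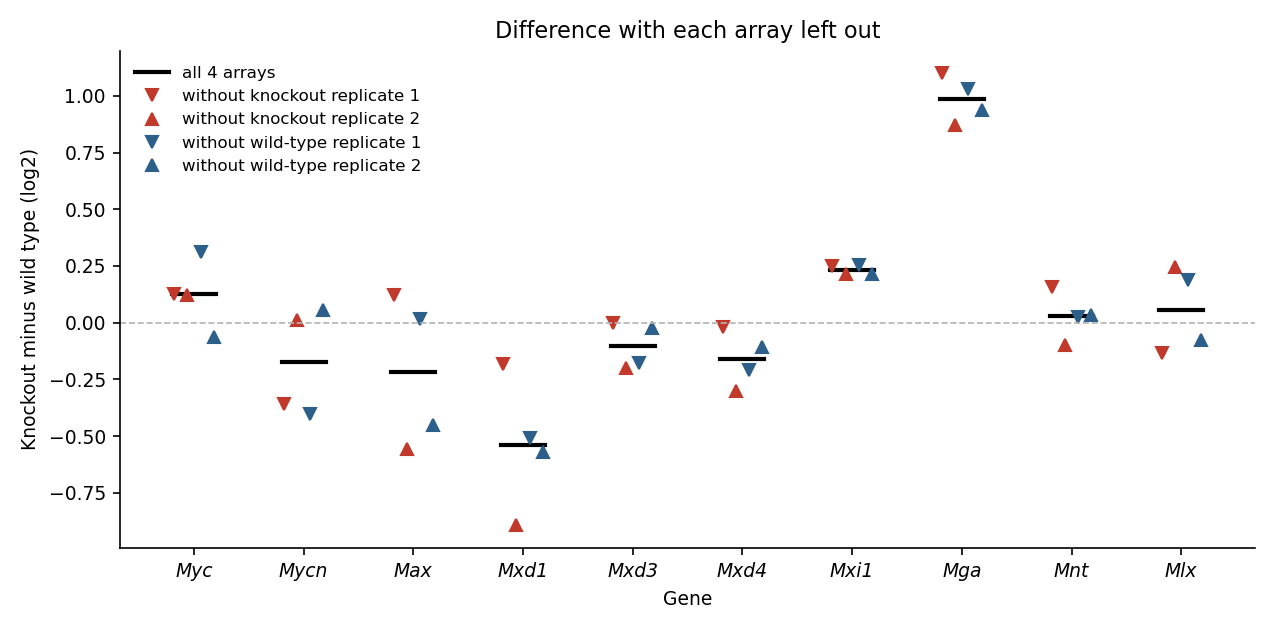
Knockout minus wild-type difference (log2, vertical axis) of each network gene (horizontal axis) with all 4 arrays (black lines) and with each array left out (triangles, red for a knockout and blue for a wild-type array). Mga stays between 0.87 and 1.10 and Mxi1 between 0.21 and 0.25, while Max runs from -0.56 to 0.12.

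Proteins that work with the network were taken from a list of 25 chromatin partners, of which 22 were measured. By limma none passed the threshold, with 0 at an unadjusted p under 0.05; 13 were higher and 9 lower in knockout, with a median of 0.13. Without overlap were 4 higher and 3 lower, or 18.2% and 13.6%, against 14.5% and 18.6% of all genes. The corepressor Sin3a, through which Mxd proteins act, read 8.32 and 7.81 in knockout against 7.68 and 7.81 in wild type, a difference of 0.32 ± 0.23 (SE, n = 2 per group) that was 0.07 without knockout replicate 1. Its relative Sin3b differed by -0.06 ± 0.19. The acetyltransferase scaffold Trrap differed by 0.26 ± 0.21, whereas its second probe set gave 1.37. The counts of this list rest on the probe set with the higher mean. Other settings that kept all arrays put Trrap at up to 0.82. The Trrap partners Ep400 and Kat5 differed by -0.04 ± 0.18 and -0.04 ± 0.18, and Zbtb17, or Miz1, with which Myc represses genes, by -0.21 ± 0.20. The elongation factor subunits Ccnt1 and Cdk9 gave the largest differences without overlap, 0.49 ± 0.22 and -0.54 ± 0.37, and Cdk9 stood at -0.02 without wild-type replicate 1 (8.15, against 7.08 to 7.11 on the other arrays).

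Myc is a short-lived protein, and 20 of 21 listed genes of its turnover were measured. By limma none passed, 2 of the 20 reached an unadjusted p under 0.05, both higher in knockout, where 2.57% of all genes were higher and 2.25% lower at that p. The median was 0.03 with 11 higher and 9 lower. Without overlap were 5 higher and 2 lower of the 20, beside 14.5% and 18.6% of all genes. Fbxw7, the ubiquitin ligase subunit that limits Myc in stem cells, read 7.48 and 8.97 in knockout against 8.13 and 8.70 in wild type. The groups interleaved, and the difference of -0.19 ± 0.55 was 0.56 without knockout replicate 1 and -0.93 without knockout replicate 2. A second probe set of Fbxw7 gave 0.13. The kinase Gsk3b, which marks Myc for Fbxw7, differed by 0.10 ± 0.34, and the ligase Huwe1 by 0.17 ± 0.15. The list holds 4 deubiquitinases, and their directions differed: Usp28 and Usp37 were higher without overlap, while Usp7 and Usp36 overlapped, at -0.21 ± 0.22 and -0.12 ± 0.22. Usp37 was named for the size of its difference, and Usp7 and Usp36 after their values were seen. Usp28, which counters Fbxw7, read 6.08 and 6.20 against 5.85 and 5.90, and Usp37 read 7.39 and 7.30 against 6.84 and 6.59. Their differences were 0.26 ± 0.16 and 0.63 ± 0.17 (SE, n = 2 per group; limma adjusted p = 0.953 and 0.945). Pim1, a kinase that stabilises Myc, differed by -0.48 ± 0.23.

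Genes that Myc is known to induce, mostly for ribosome assembly, nucleotide synthesis and growth, were measured for 53 of 56 listed. By limma none passed, and 9 reached an unadjusted p under 0.05, against 4.81% of all genes. Of these 9, 7 were higher in knockout, where 2.57% of all genes were higher and 2.25% lower at that p. The list was evenly divided, 28 higher and 25 lower, with a median of 0.01 against -0.03 over all genes. Its spread was uneven: 14 genes (26.4%) were higher without overlap, against 14.5% of all genes, and 3 (5.66%) lower, against 18.6%. With cyclic loess the counts were 15 and 6, against 17.3% and 16.3% of all genes. Without knockout replicate 1 they were 19 and 16, or 35.8% and 30.2% of the list, against 31.5% and 32.6% of all genes, so the shares were then close to the background. The counts without wild-type replicate 2 were 21 and 16 (39.6% and 30.2% of the list), against 31.1% and 35.5% of all genes. Without knockout replicate 2 there were 25 and 9 (47.2% and 17% of the list), against 27.2% and 38.5% of all genes. Without wild-type replicate 1 there were 24 and 10 (45.3% and 18.9% of the list), against 30.8% and 38.8% of all genes. These counts carry no test.

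Among these genes Rcl1, which acts in ribosomal RNA processing, read 7.43 and 7.63 in knockout against 6.28 and 6.13 in wild type, a difference of 1.33 ± 0.17 (SE, n = 2 per group; limma adjusted p = 0.770). Slc19a1, the reduced folate carrier, read 7.98 and 8.23 against 9.13 and 10.06, a difference of -1.49 ± 0.35 from 1 of 2 probe sets, the other giving -0.00036. The ribosome assembly gene Wdr43 read 10.19 and 10.21 against 8.97 and 9.31, and Polr1b, a subunit of the polymerase for ribosomal RNA, read 6.39 and 6.83 against 5.43 and 5.85. For the cap-binding translation factor gene Eif4e, 1 of 3 probe sets was used, higher without overlap, with a difference of 0.53 ± 0.15. The lowest probe set gave -0.40, so the direction depends on the probe set. The counts of this list rest on the one used, and the locus that each reads was not checked. Wdr43, Polr1b and Eif4e were chosen after their values were seen, and all are higher in knockout. The 3 genes lower without overlap were Slc19a1, Mthfd2 at -0.62 ± 0.22 and Tfb2m at -0.27 ± 0.16. The targets that follow overlapped between genotypes, whereas 17 of the 53 measured did not, against 33.2% of all genes. Ncl and Npm1, abundant nucleolar proteins, differed by 0.02 ± 0.16 and -0.04 ± 0.15. Odc1, the first enzyme of polyamine synthesis, differed by 0.10 ± 0.17 and Cdk4 by 0.23 ± 0.32. The glycolytic gene Ldha differed by -0.03 ± 0.22 and the nucleolar methyltransferase gene Fbl by -0.19 ± 0.26. Each had overlapping arrays on the probe set used. Second probe sets of Odc1 and Fbl gave 0.26 and -0.53.

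Genes that Myc is known to repress were measured for 13 of 14 listed, and Cdkn1a was not analysed here. By limma none passed, with 0 at an unadjusted p under 0.05. The median was -0.01, with 5 higher and 8 lower, and 1 higher (7.69%) and 2 lower (15.4%) without overlap, against 14.5% and 18.6% of all genes. Cdkn2b, a cell cycle inhibitor that Myc represses with Zbtb17, read 5.39 and 5.57 in knockout against 5.46 and 5.73 in wild type, differing by -0.12 ± 0.18. The stress gene Gadd45a differed by -0.00635 ± 0.22, and Cdh2, or N-cadherin, a niche adhesion gene, by -0.03 ± 0.16. The largest differences without overlap were Itga6, an integrin, at -0.41 ± 0.25 and Zfp36l1, an RNA-binding regulator, at -0.36 ± 0.16. Itga6 stood at -0.12 without wild-type replicate 1.

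**Figure D4:**
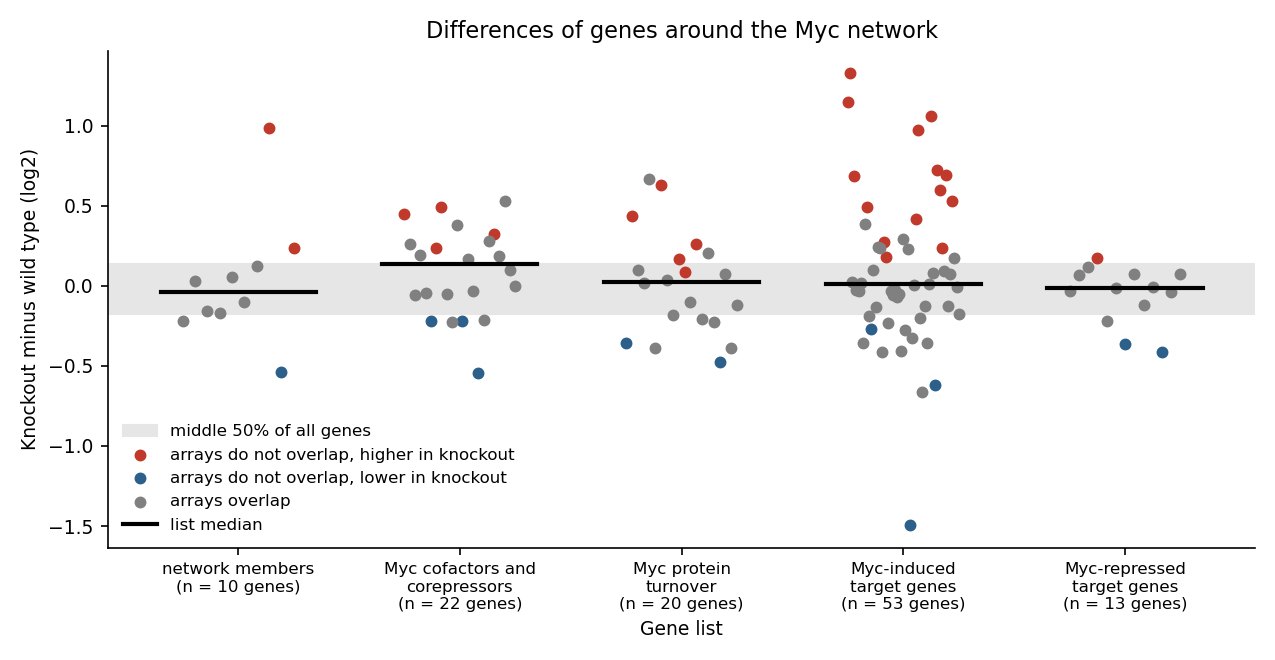
Knockout minus wild-type difference (log2, vertical axis) of each measured gene in 5 lists (horizontal axis), coloured by whether the 2 knockout and 2 wild-type arrays overlap; black lines are list medians and the grey band is the middle 50% of all genes. The Myc-induced list has a median of 0.01, with 14 genes (26.4%) higher without overlap and 3 (5.66%) lower, against 14.5% and 18.6% of all genes. Without knockout replicate 1 its shares were close to those of all genes, and the counts carry no test.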

How the data were processed

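The authors deposited 1 table, whose rows are probe sets and whose 4 columns are array intensities. The submitters' processing notes name RMA and Affymetrix Expression Console, without versions or settings. The deposited intensities are linear, since they reach 19067, so log2 was taken and no further normalization applied. Of 35554 probe sets, the first 6615 precede the first annotated one and were left out as presumed controls. The platform annotation of 2016 gave 1 symbol for 21789 probe sets, several for 1621 and none for 5529 of those tested, and Entrez IDs of 21698 matched RefSeq (GRCm38.p6), used for current symbols. The 999 genes with several probe sets are represented by the one with the highest mean.

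Knockout was compared with wild type in limma 3.58.1 (R 4.3.3; lmFit and eBayes, two-sided) with 2 residual degrees of freedom. Values are knockout minus wild type in log2 with the moderated SE. Every adjusted p is limma's, Benjamini-Hochberg over the 28939 probe sets tested. In 10 simulated comparisons of 28939 probe sets, limma called 0.149% of the probe sets with a 2-fold change, 28.7% with 4-fold and 70.5% with 16-fold. There the within-group SDs of the arrays were taken as true and shuffled over probe sets, apart from their levels. These shares therefore describe the simulation and may differ from those of the real comparison. The number of arrays limits precision, and detection calls were not used here.

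Members and lists were chosen with earlier results of these data known. Named were all members, Mycl, Mlxip and Mlxipl, preset genes of each list, members past the threshold and up to 2 genes per list with the largest difference without overlap above the median level. In the marker lists these were Cd34 (0.62), Mecom (-0.71, its other probe set 0.54), Cd3e (-0.10), Slc4a1 (0.28), Xist (6.65) and Kdm5d (-1.63). Alternatives were quantile normalization again, cyclic loess, an offset of 32, a filter on dim probe sets, an intensity trend with and without robust estimation, a replicate block, leaving out each array, the mean of a gene's probe sets, and the leading probe sets kept.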

Additional observations from a re-analysis of the deposited data

How the results depend on the processing

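No network member passed in limma under any of the 13 alternatives, and 1 had an unadjusted p under 0.05 in the fit reported. Mga kept its direction at 0.87 to 1.10, with adjusted p from 0.603 to 0.996. The replicate block also gave 0 members; deviations of equally numbered arrays correlated at 0.04 over probe sets, and the labels do not say that numbers pair the samples. The median of the members was -0.10 with probe sets above the median only, which removes Mlx, and -0.043 to 0.060 with an array left out. The medians of Myc-induced and Myc-repressed targets were 0.0071 to 0.15 and -0.12 to 0.027 then. Leaving out an array makes overlap easier to avoid: 2 to 3 members were higher and 3 to 5 lower without overlap, as were 19 to 25 and 9 to 16 Myc-induced targets, where 27.2% to 31.5% of all genes were higher and 32.6% to 38.8% lower. Cyclic loess gave 6 lower targets, against 16.3% of all genes. The alternatives for that target count were chosen after seeing the data. Over 44 single genes, 532 of 568 values had the same sign and side of the threshold. The other 36 reversed, of which 31 came from leaving out an array; the cause was not tested. Those ranges were -0.061 to 0.31 for Myc, -0.40 to 0.056 for Mycn, -0.56 to 0.12 for Max, -0.10 to 0.16 for Mnt, -0.13 to 0.25 for Mlx, -0.073 to 0.11 for Mycl, -0.17 to 0.10 for Ep400, -0.18 to 0.093 for Kat5, -0.22 to 0.11 for Sin3b, -0.29 to 0.49 for Gsk3b, -0.93 to 0.56 for Fbxw7, -0.18 to 0.63 for Cdk4, -0.021 to 0.21 for Odc1, -0.040 to 0.083 for Ncl, -0.28 to 0.21 for Ldha, -0.084 to 0.014 for Npm1, -0.44 to 0.065 for Fbl, -0.24 to 0.23 for Gadd45a, -0.083 to 0.024 for Cdh2 and -0.26 to 0.017 for Cdkn2b. With quantile normalization again Mnt stood at -0.013, Ncl at -0.040 and Cdh2 at 0.030, and with cyclic loess Ncl stood at -0.012 and Cdh2 at 0.037. The intervals of all members but Mga include 0, and signal over background was not used here.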

Other observations

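Both lists that follow were chosen after the values of Mga were seen, and they carry no test. Mga is known to anchor a variant Polycomb repressive complex with Pcgf6, L3mbtl2, E2f6 and others, which silences germline genes in somatic cells. Of 9 partner genes, all measured, none passed by limma, with 0 at an unadjusted p under 0.05. There were 5 higher and 4 lower in knockout, with a median of 0.05. Only Yaf2 did not overlap, at -0.19 ± 0.18, so 11.1% were lower without overlap against 18.6% of all genes. Pcgf6, the subunit particular to this complex, read 6.08 and 6.74 in knockout against 7.46 and 6.52 in wild type, a difference of -0.58 ± 0.41 (SE, n = 2 per group). Rnf2, its catalytic ligase, differed by 0.27 ± 0.26, and E2f6 by 0.21 ± 0.43.

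Of 14 germline genes, 3 were higher and 11 lower in knockout, where 45% of all genes were higher. Their median was -0.09 against -0.03 over all genes, and a link to Mga was not tested. By limma none passed, with 0 at an unadjusted p under 0.05. Mael and Tex101 were lower without overlap, at -0.18 ± 0.17 and -0.26 ± 0.15, or 14.3% of the list against 18.6% of all genes. Ddx4, the germ cell helicase Vasa, read 4.43 and 4.91 against 4.39 and 4.53, and Dazl read 4.32 and 4.38 against 4.26 and 4.44. Detection calls were not used here, so whether these dim readings are above background is not known.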
